A study of Mus musculus with 5 samples.

Results

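Neurotransmitter receptor genes were examined for the repressive histone mark H3K27me3 in dermal fibroblasts of mouse embryos, the cells that form the connective tissue of the skin. The members were the autosomal protein-coding genes whose symbols begin with the stems for ionotropic GABA (Gabr), AMPA (Gria), kainate (Grik), NMDA (Grin), metabotropic glutamate (Grm), glycine (Glra), nicotinic (Chrn), muscarinic (Chrm), serotonin (Htr), dopamine (Drd) and adrenergic (Adra, Adrb) receptors. The stems gave 89 genes of 20807 autosomal protein-coding genes in the GENCODE vM21 annotation of GRCm38. The potassium channel genes (Kcn, 92 genes), another family used mainly by excitable cells, were set beside them.

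Transmitter receptors fall into a pair of structural groups. Ligand-gated channels open an ion pore when the transmitter binds and are built from several subunits, each with its own gene. G protein-coupled receptors pass the signal to enzymes and channels inside the cell, and most are the product of a single gene. H3K27me3 is placed by Polycomb repressive complex 2, is removed by demethylases such as Kdm6b, and typically lies over CpG-rich starts of developmental and neuronal genes that a cell type does not use.

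The data were the H3K27me3 peak lists of 4 libraries of wild-type (WT) dermal fibroblasts, 2 labelled E14 and 2 labelled E17, which the methods of the study give as E14.5 and E18.5. No treatment or allele separated the groups, so that age was the only labelled difference. According to the methods, the mice were on a C57BL/6 background and the dermal cells were expanded in culture before the ChIP, so a change in the cells during culture and their state in the skin cannot be told apart. Labels and methods disagree on the medium (DMEM with serum or AmnioMAX), the shearing (sonication or enzymes) and the library kit (Ion Torrent or Kapa for Illumina).

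The lists held 21546 and 16574 peaks at E14 and 10429 and 7107 peaks at E17, covering 52.8, 32.1, 20 and 14.3 Mb. In this and every later sequence of 4 values, replicates 1 and 2 of E14 come first, followed by replicates 1 and 2 of E17. Because no reads are counted in the lists, library depth is unknown and no counting interval could be given. A list with fewer peaks can come from less mark or from a shallower or less enriched library, and these cannot be told apart here, nor can fewer cells with the mark and less mark in each cell. No fibroblast marker of 12 on the list (Col1a1, Pdgfra, Twist2 and others) carried a peak at its starts in any list, where 73.4% of all coding genes had none. Peaks were also absent from 2 of 2 immune, 3 of 4 endothelial and 4 of 7 keratinocyte markers, and 5 of 6 neuronal markers were marked in both E14 lists, so the lists do not identify the cell type and do not count cells.

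Sequence at the starts of 4 genes is shown as examples of members with and without the mark. Promoters of 250 bases before to 50 bases after the start were taken from RefSeq in GRCm38.p6 and matched 64 of the 89 members by symbol. Chrna3, chr9:55026513-55026812 on the minus strand, had the highest-ranked peaks at E14 among members with a peak in all 4 lists, and its promoter held 18 CpG dinucleotides. Ranks here are percentiles, within each list, of the fold enrichment of the strongest peak of a gene, where fold enrichment is the ratio of the reads piled up over a peak to the local background. Adrb1, chr19:56721867-56722166 on the plus strand and 28 CpG, had the highest rank with a promoter entry among members whose peaks were at E14 only. Peaks near Adrb1 covered 0 of its 2 annotated start sites in E14 replicate 1 and 1 of 2 in E14 replicate 2. Chrnb1, chr11:69795888-69796187 on the minus strand and 17 CpG, and Gabra6, chr11:42321023-42321322 on the minus strand and 2 CpG, had no peak. The last pair was picked among peak-free members with an entry for a high and a low CpG count in the 1 kb around the start, 51 and 6. CpG dinucleotides are in capitals.
Chrna3: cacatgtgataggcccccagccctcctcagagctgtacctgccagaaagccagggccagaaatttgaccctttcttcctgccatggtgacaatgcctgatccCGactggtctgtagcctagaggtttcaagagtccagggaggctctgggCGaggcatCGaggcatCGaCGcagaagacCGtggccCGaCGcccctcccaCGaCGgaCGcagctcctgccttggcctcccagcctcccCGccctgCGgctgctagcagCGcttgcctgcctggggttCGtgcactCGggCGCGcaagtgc
Adrb1: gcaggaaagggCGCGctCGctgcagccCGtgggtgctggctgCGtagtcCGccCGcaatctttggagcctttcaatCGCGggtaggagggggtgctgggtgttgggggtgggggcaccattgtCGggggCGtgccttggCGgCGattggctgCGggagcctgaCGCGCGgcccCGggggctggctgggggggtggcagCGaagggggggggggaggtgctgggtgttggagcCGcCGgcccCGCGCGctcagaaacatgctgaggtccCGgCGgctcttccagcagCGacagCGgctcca
Chrnb1: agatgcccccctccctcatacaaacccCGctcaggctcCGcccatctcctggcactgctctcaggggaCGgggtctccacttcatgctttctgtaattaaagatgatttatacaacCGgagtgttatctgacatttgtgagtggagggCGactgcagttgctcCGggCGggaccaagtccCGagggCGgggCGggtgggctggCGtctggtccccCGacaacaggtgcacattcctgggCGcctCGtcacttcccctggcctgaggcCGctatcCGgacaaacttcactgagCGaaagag
Gabra6: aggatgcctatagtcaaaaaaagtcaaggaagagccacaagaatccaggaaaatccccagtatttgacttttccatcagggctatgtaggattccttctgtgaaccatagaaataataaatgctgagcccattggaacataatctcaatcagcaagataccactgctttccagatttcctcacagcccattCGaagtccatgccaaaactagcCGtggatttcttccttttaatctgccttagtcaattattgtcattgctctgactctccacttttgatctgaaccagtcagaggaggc

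To ask how many receptor genes carried the mark at each age, a gene was scored by any peak that overlapped the 3000 bp on either side of any of its annotated start sites by at least 1 bp. At E14, 68 and 65 of the 89 members had a peak, and at E17, 52 and 48 did, with means of 66.5 ± 2.12 and 50 ± 2.83 (SD, n = 2 libraries each). Among all autosomal protein-coding genes the corresponding shares were 25.3%, 21.1%, 15.8% and 13.4%, against 76.4%, 73.0%, 58.4% and 53.9% of the members. The 24.8% decrease in the number of members with a peak separated the ages without overlap. It gave p = 0.333 in the exact permutation test over libraries (two-sided), which is the smallest p that 2 against 2 libraries allow.

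A peak in both libraries of an age is called marked below. At E14, 64 members (71.9%) were marked, where 20.2% of all coding genes were, and at E17, 48 members (53.9%) were marked, where 12.7% of all coding genes were. Of the 64, the same 48 members marked at E17 had a peak in all 4 lists, which is 75% of those marked at E14 beside 62.3% for all genes. A further 12 members (18.8% of the 64, beside 23.4% for all genes) had no peak in either E17 list, and 4 members (6.25%, beside 14.3%) had one in E17 replicate 1 alone. No member was marked at E17 without a peak at E14, a pattern that 0.0961% of all genes had. The remaining members were 5 with a peak in a single E14 list and 20 with no peak in any list. In the potassium channel family, 68 of 92 genes were marked at E14 and 62 had a peak in all 4 lists. The count of marked receptor genes was well above the background at both ages, and the shares kept and lost between the ages lay closer to it.

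These counts depended on the unequal lengths of the lists. When each list was reduced to its 7107 top peaks by q-value, 56 members were marked at E14 and 48 at E17, 6 members were marked at E14 only, and 1 at E17 only. Of all coding genes, 14.7% were then marked at E14 and 12.1% at E17, and 53 genes were marked at E17 only. The E14-only members made up 10.7% of those marked at E14, close to the 11.5% of all coding genes marked at E14. When each list was reduced to the same covered length of 14.3 Mb, which left 1545, 2413, 4110 and 7107 peaks, the order of the ages turned around. Members with a peak then numbered 17, 30, 40 and 48, with 16 marked at E14 and 39 at E17. All coding genes turned in the same setting, from 20.2% and 12.7% marked to 5.97% at E14 and 10.4% at E17. The fall in receptor genes marked, which all coding genes shared, thus held for the lists as called and for lists of equal number. It did not hold for lists of equal covered length.

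**Figure D1:**
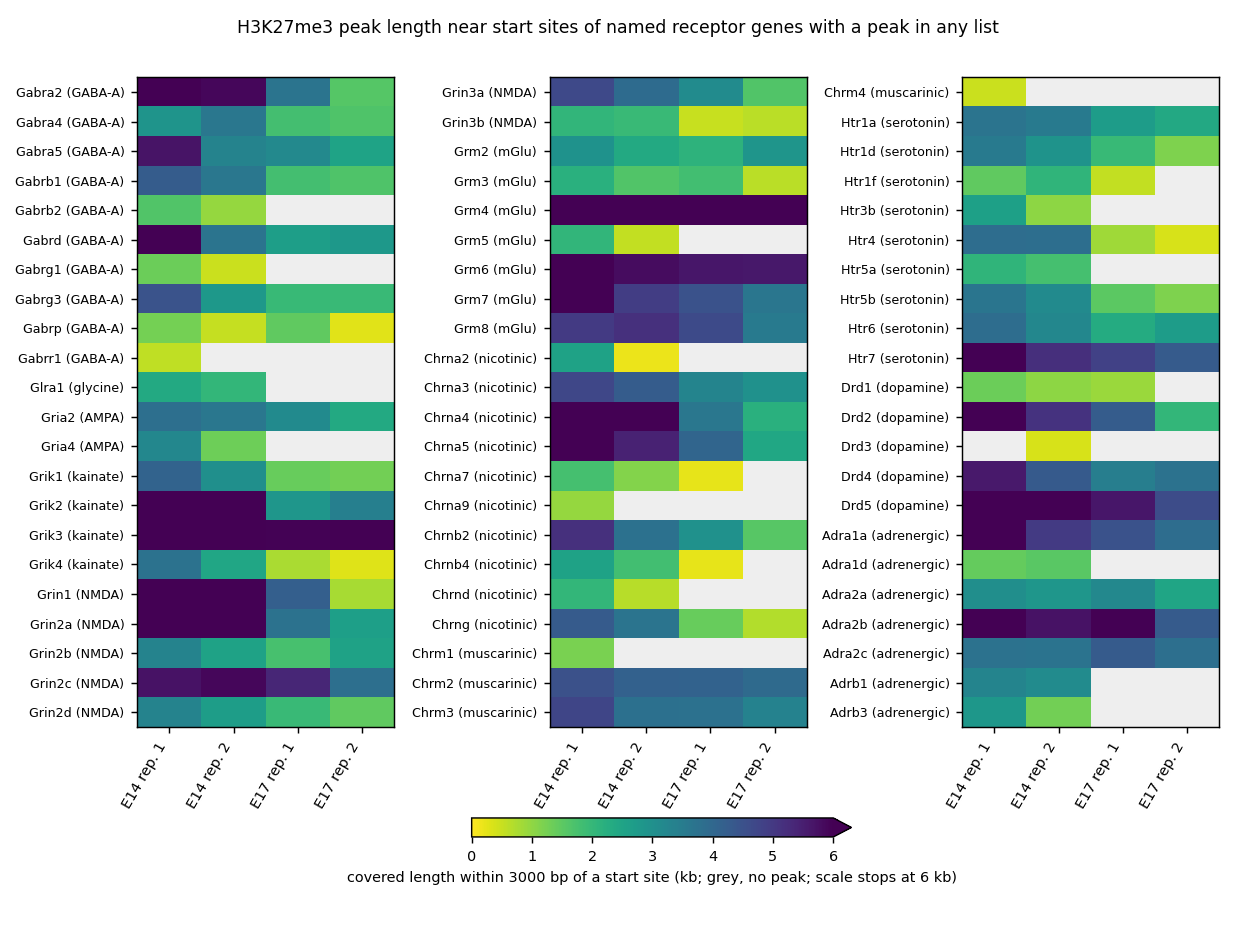
Covered length near start sites for the named receptor genes with a peak in at least 1 list, in kb, 1 row per gene with its class and 1 column per library. Grey marks no peak, and the colour scale stops at 6 kb, which hides differences above that length. In most rows the E17 columns are paler than the E14 columns, and grey cells at E17 mark the genes without a peak there.

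The length of the mark near start sites was compared next. Peaks covered 279 and 225 kb of the members' windows at E14 and 157 and 121 kb at E17, or 252 ± 38.0 and 139 ± 25.1 kb (SD, n = 2 libraries). The 44.9% decrease again separated the ages without overlap (exact permutation p = 0.333, two-sided). Windows of all coding genes lost 46.1% and those of the potassium channels 36.3%. Receptor genes held 1.53%, 1.62%, 1.63% and 1.58% of the covered length of all coding genes in the 4 libraries, so that their portion stayed within this narrow range while the total fell. With lists of equal covered length the members' windows held 81.3, 120, 125 and 121 kb, and the mean was then higher at E17.

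Gene by gene, 56 of the 64 members marked at E14 (87.5%) were covered over less length in both E17 lists than in either E14 list, where 83.9% of all genes marked at E14 were. Only 1 of the 48 members with a peak in all 4 lists, Adra2c, was covered over more length in both E17 lists than in either E14 list, and 0.536% of all genes with a peak in all 4 lists were. Over these 48 members the mean E17 length divided by the mean E14 length had a median of 0.60 (quartiles 0.475 and 0.795), beside 0.627 for all genes and 0.676 for potassium channels. The E17 peaks lay almost entirely inside the E14 peaks. Of the length covered in the E17 lists, 98.5% and 99.1% was also covered in an E14 list for the members, and 98.2% and 99.0% for all genes.

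**Figure D2:**
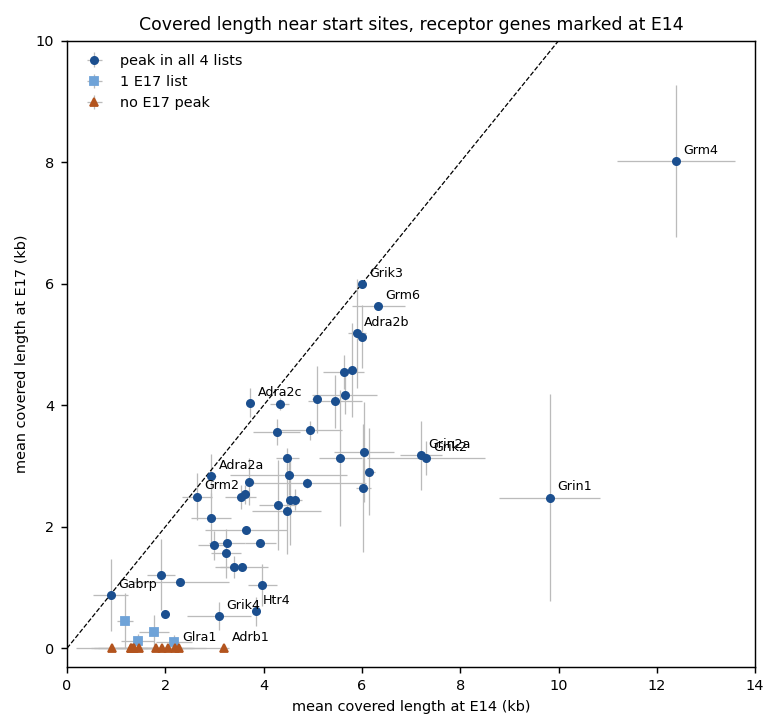
Mean covered length at E14 (x axis, kb) and at E17 (y axis, kb) for the 64 receptor genes marked at E14, 1 point per gene. Error bars span the 2 libraries of each age, the dashed line marks equal lengths, and points are coloured by whether the E17 lists hold a peak. Nearly all points lie below the line, Adra2c lies above it, and the 12 genes without an E17 peak lie on the x axis, none beyond 3204 bp at E14.

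Coverage fell on both sides of the start. For the 48 members with a peak in all 4 lists, the sequence most often under a peak lay about 1 kb downstream of the start of the gene. In the bin centred 1125 bp downstream, 89.0%, 83.1%, 76.3% and 64.0% of the sequence was under a peak. In the bin centred 2125 bp upstream, the values were 39.2%, 30.2%, 9.87% and 5.11%, and 2125 bp downstream they were 83.3%, 74.2%, 57.5% and 43.2%. All genes with a peak in all 4 lists fell at these positions too, with 79.9%, 74.6%, 64.5% and 57.1% at 1125 bp downstream, and 55.2%, 42.5%, 29.4% and 23.6% at 2125 bp upstream. Counting any annotated start site of a gene, and not only the start used above, a start site was under a peak in 54 of 68, 55 of 65, 41 of 52 and 36 of 48 members with a peak.

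**Figure D3:**
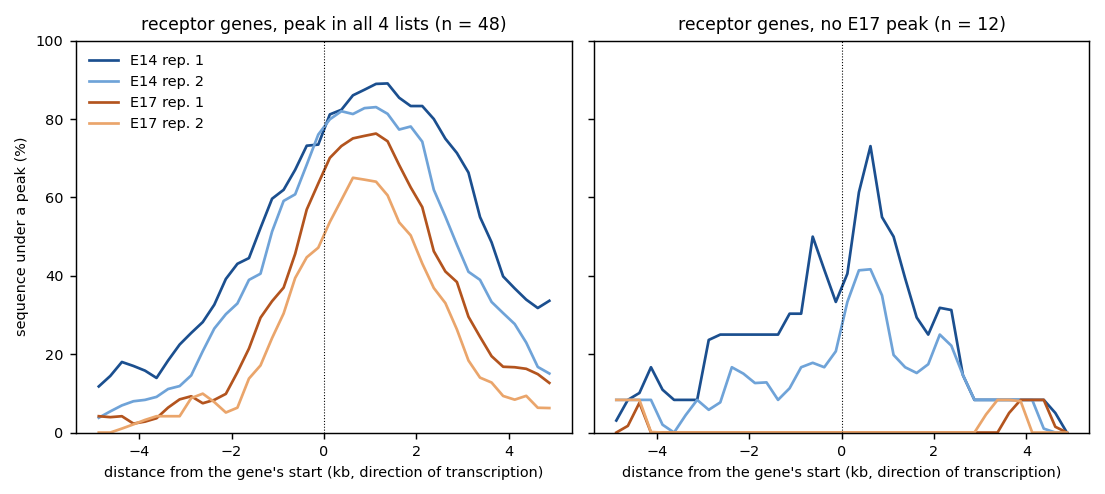
Percent of sequence under a peak (y axis) by distance from the start of the gene in kb (x axis, in the direction of transcription, bins of 250 bp) in each library. The left panel shows the 48 receptor genes with a peak in all 4 lists and the right panel the 12 whose windows held no E17 peak. In the left panel the 4 curves peak downstream of the start and the E17 curves fall faster on both sides. In the right panel the short rises at E17 beyond 3 kb come from peaks outside the scored windows.

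Ionotropic GABA receptors are chloride channels that carry most fast inhibition in the brain. Of 16 members, 9 had a peak in all 4 lists (among them Gabra2, Gabra4, Gabra5, Gabrb1, Gabrd, Gabrg3 and Gabrp), Gabrb2 and Gabrg1 were marked at E14 only, and Gabrr1 had a peak in E14 replicate 1 alone. Gabra6, a subunit of cerebellar granule cells, Gabrr2 and Gabrr3 had no peak. Gabra2 was covered over 6178, 5885, 3692 and 1588 bp, so that both E17 values lay below both E14 values. For Gabrb2 the windows were covered over 1638 and 948 bp at E14, and for Gabrg1, in the same cluster as Gabra2, over 1343 and 482 bp. Gabrp, the pi subunit found mainly outside the brain, kept 0.98 of its E14 length, but its 4 values of 1249, 535, 1465 and 280 bp overlapped between the ages.

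GABA receptor genes lie in clusters, and their neighbours did not always share a pattern. Gabrg3 and Gabra5 on chromosome 7 both had peaks in all 4 lists, and the cluster on chromosome 5 did so except at Gabrg1. On chromosome 11, Gabrb2 had peaks at E14 only and Gabra6 in no list. Gabra4 and Gabrb1 lie head to head and were the only members that shared a peak, with 1, 2, 1 and 1 shared peaks. Their windows were covered over 2883 and 4253 bp in E14 replicate 1, and over the same 3619, 1792 and 1662 bp in the other 3 libraries, so they are not independent of each other. In all, 30 members lay in 11 clusters with gaps of at most 1 Mb.

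The glycine receptor alpha subunits, channels of fast inhibition in spinal cord and brainstem, numbered 2. Glra1 was marked at E14 over 2358 and 2023 bp and had no E17 peak, and Glra3 had no peak. By percentile of fold enrichment, the E14 peaks of Glra1 ranked at 90.2 and 85.0 in their lists, the highest mean rank among the members without an E17 peak.

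NMDA receptors, the calcium-permeable glutamate channels that act in synaptic plasticity, had a peak in all 4 lists at each of 7 genes (Grin1, Grin2a, Grin2b, Grin2c, Grin2d, Grin3a and Grin3b). Grin1 encodes the subunit that every NMDA receptor needs. Its windows, which span 9 start sites, were covered over 10851, 8792, 4180 and 781 bp, a fall to 0.25 of the E14 mean, with E17 replicate 2 far below replicate 1. Grin2a was covered over 7624, 6770, 3742 and 2607 bp. Grin3b, which encodes a subunit of low calcium permeability, kept 0.28 of its length, at 2054, 1925, 507 and 616 bp. In Grin2b the ages overlapped (3327, 2532, 1742 and 2549 bp), and in the other 6 genes they did not.

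Kainate receptors are glutamate channels that modulate transmission on both sides of the synapse. Peaks in all 4 lists were found at Grik1, Grik2, Grik3 and Grik4, and none at Grik5, which with Grik4 encodes the high-affinity subunits. Grik3 was covered over 6001, 6001, 5976 and 6001 bp of a 6001 bp window. Its ratio of 1.00 therefore reflects a full window, and its widest peak measured 15233, 12173, 9423 and 7514 bp. Grik2 fell from 8500 and 6098 bp to 2845 and 3414 bp. Grik4 showed the second lowest ratio among the 48 members with a peak in all 4 lists, 0.17, with 3748, 2438, 769 and 295 bp.

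AMPA receptors carry fast excitation, and the 3 autosomal genes showed 3 patterns. Gria2, which encodes the subunit that keeps calcium out of the channel, had peaks in all 4 lists over 3808, 3616, 3129 and 2357 bp. Gria4 was marked at E14 only, over 3216 and 1335 bp, with low ranks at the 33.1 and 29.7 percentile. Gria1 had no peak.

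Metabotropic glutamate receptors tune transmission through G proteins. All 8 genes were marked at E14, and Grm2, Grm3, Grm4, Grm6, Grm7 and Grm8 were among the 7 with a peak in all 4 lists. Grm5, a postsynaptic group I receptor, was the exception, covered over 2048 and 546 bp at E14 and without a peak at E17. Grm4, a presynaptic group III receptor with 8 start sites, had the greatest covered length of all members, 13587, 11192, 9266 and 6768 bp. Grm6, the receptor of retinal bipolar cells, kept 0.89 of its length at 6867, 5805, 5641 and 5618 bp. The group II pair Grm2 and Grm3 overlapped between the ages, Grm2 with 2949, 2346, 2111 and 2879 bp and a ratio of 0.94.

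**Figure D4:**
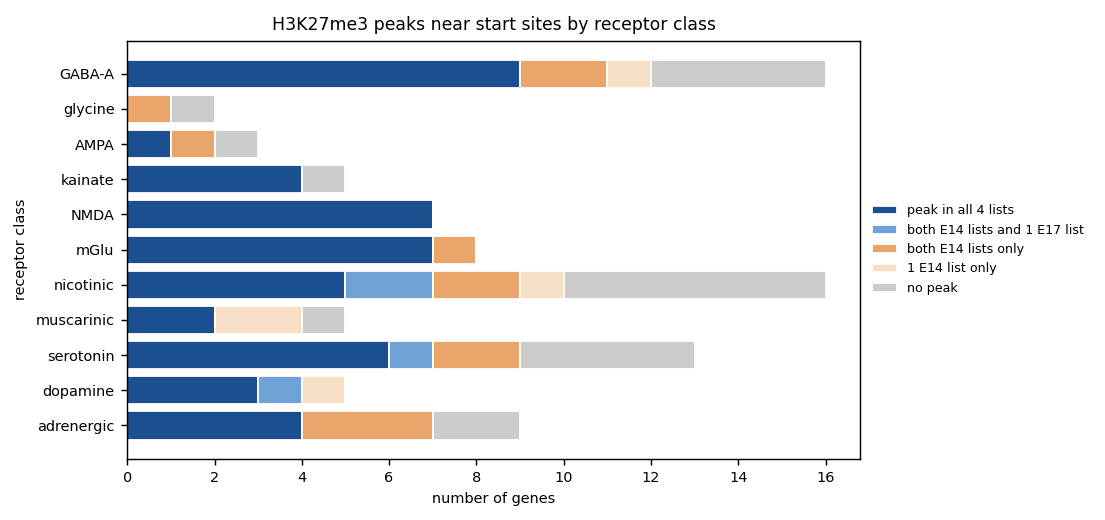
Number of receptor genes (x axis) with each pattern of H3K27me3 peaks near start sites, for the 11 receptor classes (y axis). All 7 NMDA genes had a peak in all 4 lists, and the nicotinic class had the most genes without a peak, 6 of 16.

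Nicotinic receptors are cation channels opened by acetylcholine. Peaks in all 4 lists were found at Chrna3, Chrna4, Chrna5, Chrnb2 and Chrng, peaks at both E14 lists and E17 replicate 1 at Chrna7 and Chrnb4, and peaks at E14 only at Chrna2 and Chrnd. Chrna9, a subunit of inner ear hair cells, had a peak in E14 replicate 1 alone, and Chrna1, Chrna6, Chrna10, Chrnb1, Chrnb3 and Chrne had none. Within 3000 bp of a start, the 5 subunits of skeletal muscle thus divided into Chrng and Chrnd with peaks and Chrna1, Chrnb1 and Chrne without. The division depended on the window. With 5000 bp, Chrnb1 and Chrnd had a peak in all 4 lists, and with 1000 bp Chrnd was no longer marked at E14 only. Chrng, the gamma subunit of fetal muscle, fell to 0.26 of its E14 length with 4267, 3688, 1391 and 702 bp, and the delta subunit Chrnd, its neighbour on chromosome 1, was covered over 2032 and 636 bp at E14.

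Chrna5, Chrna3 and Chrnb4 form the cluster on chromosome 9 whose products make up the receptor of autonomic ganglia. Chrna5 was covered over 6654, 5431, 4048 and 2416 bp. Chrnb4 was covered over 2541, 1811, 217 and 0 bp, so its peak was down to a short stretch in a single E17 library. Chrna4, which with Chrnb2 makes the main nicotinic receptor of the brain, fell from 6258 and 6026 bp to 3618 and 2193 bp. At Chrna2, E14 lengths were 2551 and 174 bp, so its call as marked rests on a short peak in replicate 2, at the 5.62 percentile of that list. Chrna7, the subunit of homomeric receptors, had 1779, 1107, 231 and 0 bp.

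Muscarinic receptors are the G protein-coupled receptors for acetylcholine. Chrm2, the receptor that slows the heart, and Chrm3, the receptor of glands and smooth muscle, had peaks in all 4 lists. Chrm1 and Chrm4 had a peak in E14 replicate 1 alone, over 1213 and 485 bp, and Chrm5 had none. With a window of 5000 bp, Chrm4 had a peak in all 4 lists and Chrm5 in 1, and of the members described under other classes, Chrnd, Htr3b and Chrnb1 had one in all 4. Chrm2 changed little in length, with 4523, 4127, 4112 and 3928 bp, although both E17 values lay below both E14 values.

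Serotonin receptors include the channels encoded by Htr3a and Htr3b and a series of G protein-coupled receptors. Htr1a, Htr1d, Htr4, Htr5b, Htr6 and Htr7 had peaks in all 4 lists, Htr3b and Htr5a at E14 only, Htr1f in both E14 lists and E17 replicate 1, and Htr1b, Htr2a, Htr2b and Htr3a in none. Htr4 showed the lowest ratio among the 48 members with a peak in all 4 lists, 0.16, with 3846, 3832, 847 and 372 bp. Htr3b was covered over 2593 and 1024 bp and Htr5a over 2075 and 1781 bp at E14. Htr1f had 1462, 2075, 546 and 0 bp.

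Dopamine receptors stimulate (Drd1, Drd5) or inhibit (Drd2, Drd3, Drd4) the synthesis of cyclic AMP. Drd2, Drd4 and Drd5 had peaks in all 4 lists, Drd1 lacked one in E17 replicate 2, and Drd3 had one in E14 replicate 2 alone. Drd5 was covered over 6001, 5995, 5648 and 4611 bp of its 6001 bp window. Drd1 had 1339, 1018, 911 and 0 bp.

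Adrenergic receptors bind adrenaline and noradrenaline, and their subgroups differed. The 3 alpha-2 genes, which encode receptors coupled to inhibitory G proteins, each had a peak in all 4 lists, and none of them was shorter in both E17 lists than in either E14 list. Adra2a had 3038, 2840, 3196 and 2470 bp, a ratio of 0.96. Adra2b had 6079, 5716, 6079 and 4288 bp, a ratio of 0.88, but its 6079 bp window was full in replicate 1 of both ages, and its widest peak ran from 17655 bp in E14 replicate 1 to 4807 bp in E17 replicate 2. Adra2c had 3749, 3710, 4281 and 3801 bp, a ratio of 1.08.

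In contrast, the beta receptor genes Adrb1 and Adrb3 had no E17 peak. Adrb1, the main beta receptor of the heart, was covered over 3295 and 3113 bp at E14, the greatest length among the 12 members lost at E17, and Adrb3, a receptor of fat cells, over 2833 and 1286 bp. Of the alpha-1 genes, Adra1a had peaks in all 4 lists, Adra1d was covered at E14 alone over 1421 and 1524 bp, and Adra1b had no peak. The contrast of these beta genes with the alpha-2 genes was seen after the values were known, rests on 2 and 3 genes, and was not tested.

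Channels and G protein-coupled receptors were then set side by side. Of 51 channel genes, 35 were marked at E14 and 26 had a peak in all 4 lists, with a median length ratio of 0.530 (quartiles 0.438 and 0.616). Of 38 G protein-coupled receptor genes, 29 were marked at E14 and 22 had a peak in all 4 lists, with a median ratio of 0.742 (quartiles 0.637 and 0.873). Among all coding genes 20.2% were marked at E14, and the median ratio was 0.627, between the medians of the groups. Potassium channels had a median ratio of 0.676. The groups also differed in the rank of their E14 peaks. Among members with a peak in all 4 lists, the median percentiles at E14 were 89.0 and 85.4 for channels. For G protein-coupled receptors they were 93.2 and 92.1. Whether the ratios ran with rank was not tested. The shares of genes marked at E14 with a peak in all 4 lists were close, 74.3% for channels and 75.9% for G protein-coupled receptors, beside 62.3% for all genes. Genes of a group share libraries and some share clusters, so these medians are descriptions of the 4 libraries without a test. Peaks of at least 10 kb were found at 5 members, Adra2b, Grik3, Grin1, Grin2c and Grm4 (5.62%, beside 3.20% of all genes). Grik3 reached that width in both E14 lists, and the other 4 in E14 replicate 1 alone, such as Grin2c with widest peaks of 11927, 6582, 5759 and 3622 bp.

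Whether a member kept its peak ran with the rank of the peak at E14. The median percentile of fold enrichment of the members with a peak was 89.0, 85.5, 76.9 and 68.4 in the 4 lists, 14.7 points lower at E17 on average (exact permutation p = 0.333, two-sided). The medians of all genes with a peak were 83.8, 82.7, 78.7 and 73.3. The percentiles come from lists of unequal length, so a rank is relative to its own list and the difference is not a change in enrichment. By mean percentile over the E14 lists, all 22 members at 90 or above had a peak in all 4 lists, as did 25 of 30 from 80 to 90, 0 of 6 from 60 to 80, and 1 of 6 below 60, Gabrp. The corresponding shares of all genes were 96.2%, 77.0%, 29.7% and 10.6%. Of the 12 members without an E17 peak, 9 stood below 80 and none above 90. The bands were chosen after the values were seen, and the lower pair holds 6 members each.

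CpG content at the start of the gene differed between members with and without the mark. In the 1 kb centred on the start, the ratio of observed to expected CpG had a median of 0.598 in the 48 members with a peak in all 4 lists, 0.449 in the 12 marked at E14 only, and 0.241 in the 20 without a peak. For all coding genes of the same patterns the medians were 0.630, 0.556 and 0.539, a narrower range. Below a ratio of 0.4, 18 of 39 members (46.2%) were marked at E14, from 0.4 to 0.6 19 of 21 (90.5%) were, and at 0.6 or above 27 of 29 (93.1%) were. Over all genes the shares were 12.6%, 35.3% and 22.0%. CpG content alone did not sort the members, as the printed promoters show: Adrb1, with a ratio of 0.846 and 111 CpG in the 1 kb, lost its peak, and Chrnb1, with 0.638, had none within 3000 bp of a start. Adra2c, with a ratio of 0.263, was covered in all 4 lists, and CpG counts in the 1 kb of members with a peak in all 4 lists ran from 4 (Grin2d) to 125 (Grik3).

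**Figure D5:**
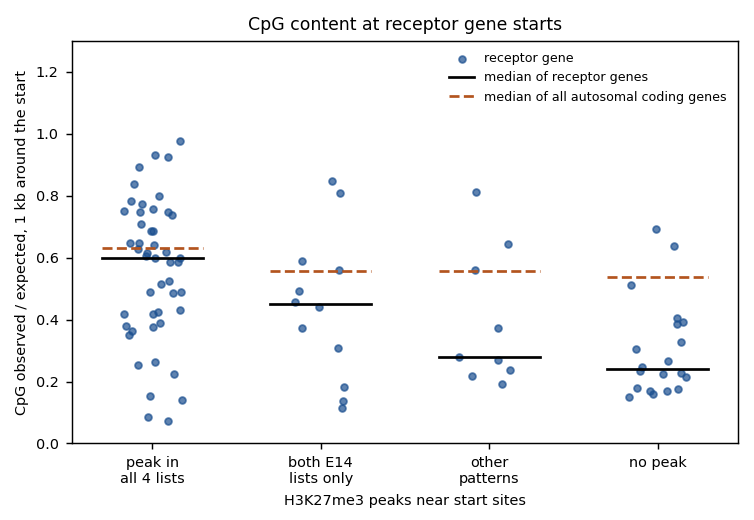
Observed over expected CpG in the 1 kb around the start of the gene (y axis) for the 89 receptor genes, grouped by pattern of H3K27me3 peaks (x axis). Black lines are the medians of the receptor genes and dashed lines the medians of all autosomal coding genes with the same pattern. The receptor medians go from 0.598 with a peak in all 4 lists to 0.241 with no peak, and single genes overlap widely between groups.

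The windows were also searched on both strands for the core of the motif of REST, a repressor of neuronal genes in other tissues, spelled TTCAGCACCNNGGACAG. Exact matches lay in the windows of 62 of 20807 genes (0.298%) and of 5 of 89 members (5.62%). In Grin1 (chr2:25319012-25319040), Chrnb2 (chr3:89764452-89764480) and Drd2 (chr9:49341194-49341222) the match was under a peak in all 4 lists, at 77, 150 and 573 bp downstream of the nearest start. In Htr1a (chr13:105442783-105442811, 850 bp upstream) it was under no peak in any list. These 4 matches, all on the minus strand in GRCm38, are shown with 6 bases on either side and the motif in capitals, because they place the letters in the peaks of 3 members and outside those of Htr1a.
Grin1: atacgcTTCAGCACCTCGGACAGcacccg
Chrnb2: cgcggcTTCAGCACCACGGACAGcgctcc
Drd2: acgggaTTCAGCACCAAGGACAGcagaaa
Htr1a: attgggTTCAGCACCCGGGACAGctctgt
Of the 62 genes with a match, 52 were marked at E14 and 42 had a peak in all 4 lists. Among all coding genes 20.2% were marked at E14, and 2613 of 20807 had a peak in all 4 lists. A link between the match and the mark was not tested. A match is a run of letters, and binding of the factor was not measured.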

How the data were processed

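H3K27me3 ChIP-seq peak lists of 4 libraries of WT dermal fibroblasts were analysed (E14 and E17 by the labels, n = 2 each). According to the submitters' processing notes and the methods, the authors aligned reads with Bowtie2 2.3.5.1, used SAMtools 1.9 and deepTools 3.5.1, and called broad peaks with MACS2 2.2.7.1 at a q-value of 0.01 on mm10 (GRCm38), 1 list per library. The control of the call is not given in the sources used here. Subsampling is stated for E18.5 WT and Kdm6b-cKO samples and may or may not cover these libraries. An input library shared by both ages was not analysed here.

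The lists the authors deposited give a fold enrichment per peak, which is a ratio to the local background, −log10 values of p and q, and a display score that was not used. Fold enrichment was used as a percentile within its own list, and −log10 q to rank or filter peaks. Fewer or shorter peaks can come from depth or enrichment, which the lists do not record.

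Windows of 3000 bp on either side of every GENCODE vM21 start site were merged per gene. Presence, covered length and the percentile of the strongest peak were scored for all autosomal protein-coding genes, and values per library were compared by exact permutation (two-sided). CpG and motif matches were read from the GRCm38 sequence. The text names members with their pattern, apart from a few genes that are not reported here, and gives the lengths of those without an E17 peak, the 10 longest at E14, the 5 lowest and 5 highest ratios, those with peaks of at least 10 kb, and those that share a peak. Values of other members were added after they were seen. The members and lists were chosen with earlier results of these data known. Other windows, start sites, thresholds, list lengths, overlaps, percentiles by −log10 q, marking by either replicate, a replicate block and omission of each library were tried. Scripts ran in Python 3.11.15 with pandas 2.3.3, numpy 2.4.6 and scipy 1.17.1, and were tested on simulated data. Nothing states that the replicates came from separate animals, so the spread between them may be technical.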

Additional observations from a re-analysis of the deposited data

How the results depend on the processing

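Of 159 values of the main results recomputed under the alternatives, 143 stayed the same by the rules below, 13 moved, and 3 reversed. The percent decreases and the percentile difference were judged by direction alone, and counts by staying within 1.5 times the main value. The median length ratio was judged by lying within 0.134 of its main value, the SD over the 4 pairs of an E14 and an E17 library. With lists of equal covered length, the number of members with a peak changed from a decrease of 24.8% to a value of -87.2% and the covered length from 44.9% to -22.7%, which are increases at E17. In that setting 16 members were marked at E14, 0 at E14 only, 10 at E17 only and 16 in all 4 lists, 10 were shorter in both E17 lists, and the median length ratio was 0.768. Of all coding genes, 24 were then marked at E14 only and 483 at E17 only. Lists of equal number gave 6 members at E14 only and 1 at E17 only, beside 352 and 53 of all coding genes. Members with a peak fell by 13.9% in that setting. At a −log10 q of at least 5, the decreases were 65.7% in members with a peak and 74.7% in covered length, 11 members were marked at E17, 26 at E14 only and 11 in all 4 lists, the ratio was 0.739, and the difference in median percentile was 0.421 (exact permutation p = 1.00). A window of 1000 bp gave a ratio of 0.777. The cause of these changes was not tested. Leaving out each library gave decreases of 21.8% to 27.8% in members with a peak and of 37.9% to 51.9% in covered length. By the lists that remained, 12 to 16 members were marked at E14 only and 48 to 52 had a peak in every list, with ratios of 0.521 to 0.726.

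Among 11 settings applied to single members, 9 of 48 members with a peak in all 4 lists kept that pattern in each setting (Adra2b, Gria2, Chrna5, Chrna3, Grm6, Grin2c, Adra1a, Htr7 and Adra2a), as did 16 of 20 without a peak and 0 of 12 at E14 only. With lists of equal number, 5 of the 12 (Glra1, Grm5, Adra1d, Adrb1 and Adrb3) kept theirs. The methods state no pairing of the replicates across ages. The deviations of replicate 1 at E14 and E17 correlated with r = 0.037 over 48 members. That value cannot exclude a pairing, because a shift common to all genes would not show in it. With the replicate block, the decreases were 24.8% and 45.0% and the percentile difference -14.7, each with an exact permutation p of 0.5, the smallest that 2 pairs allow. The absence of read counts and 2 libraries per age limit every comparison.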

Other observations

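Genes that make, load and clear transmitters carried the mark as well. All 7 vesicular transporter genes were marked at E14, beside 20.2% of all coding genes, and 6 had a peak in all 4 lists, among them Slc32a1, the loader of GABA and glycine, covered over its whole 6001 bp window in each library. Slc17a6, a loader of glutamate, was covered over 11587, 11582, 10589 and 9902 bp. Slc18a1 was marked at E14 only, over 245 and 361 bp. Of 11 synthesis genes, 7 were marked at E14 and 5 had a peak in all 4 lists (Chat, Gad1, Gad2, Pnmt and Tph1), while Dbh and Ddc had none. Gad1, which makes GABA, was covered over 10336 bp in every library. Of 15 plasma membrane transporters, 11 were marked at E14 and 9 had a peak in all 4 lists, and Slc1a3 and Slc6a13 were marked at E14 only.

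Receptor partners were counted by kind, where 20.2% of all coding genes were marked at E14 and 73.4% had no peak. Of 16 auxiliary subunits, 12 were marked at E14, 9 had a peak in all 4 lists, and Cacng2, Cnih2 and Ric3 were marked at E14 only. Of 22 scaffolds and synapse organisers, 11 were marked and 11 had no peak, the latter including Gphn, the scaffold of glycine and GABA receptors, and Rapsn, Musk and Agrn of the neuromuscular junction. Among 33 receptors for histamine, purines, opioids, somatostatin and other peptides, 22 were marked at E14 and 13 had a peak in all 4 lists. Of 5 related subunits outside the symbol stems, 3 had a peak in all 4 lists, Gabbr2 and Grid1 among them, Glrb lacked one in E17 replicate 2 and Gabbr1 had none.

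Among the X-linked relatives, which the autosomal rule leaves out, Htr2c had a peak in all 4 lists over 4910, 4115, 2540 and 1024 bp, Gabrq was covered at E14 only over 1276 and 1774 bp, and Gabra3, Gabre, Gria3, Glra2 and Glra4 had no peak. Of the other marker lists, skeletal muscle genes were marked at E14 in 3 of 4 (Myod1, Myf5 and Des) and keratinocyte genes in 3 of 7. Endothelial genes were marked in 1 of 4, glia and melanocyte genes in 1 of 3 and immune genes in 0 of 2, beside 20.2% of all coding genes. None of these lists was tested.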
